A study of Oryza sativa Japonica Group with 18 samples.

Results

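In 1 leaf library of wild-type rice, 169 genes were far below their level in its replicates. Most of the few that could be named make or modify the cell wall, but the names tried were mostly of wall, cell type and leaf genes. The 169 genes were selected on the values of the wild-type (WT) control libraries. The group holds 169 of the 35679 genes with a rice locus ID in the deposited table. A gene was a member where WT control replicates 1 and 3 averaged at least 10 FPKM, and where replicate 2, after adding 1 FPKM to each value, was at least 6 times below the lower of replicates 1 and 3. FPKM are fragments scaled to the length of the gene and to the library total. The genes CESA4, CESA7, CESA9 and BC1 also met this rule and were left out of the group by design. They are described beside it.

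The 18 libraries came from leaves of rice seedlings (Oryza sativa, Japonica group) at the 3-leaf stage. Plants of the OsERF096-OX line overexpressed OsERF096, which encodes an ethylene response factor, and plants of the OsERF096-RNAi line carried an RNA interference construct against it. They are called OX and RNAi here. Leaves were frozen after 12 h at 4 °C (OX cold, RNAi cold and WT cold) or from normal growth (OX control, RNAi control and WT control), with 3 libraries in each of the 6 groups. The labels name neither the promoters of the constructs nor the number of independent transgenic lines, and it is not stated that the libraries within a group stem from different plants. The p-values therefore cover only the variation among these libraries, part of which may be technical. The row of OsERF096 was not analysed here.

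Plant cells lay down a thick secondary wall inside the growing primary wall once they stop expanding. In grass leaves such walls are best known from the xylem and from the fibres along the veins. Cellulose synthase subunits (CESA) make the cellulose, a set of glycosyltransferases makes xylan, and the phenylpropanoid pathway turns phenylalanine into monolignols that laccases and peroxidases join into lignin. Expansins, by contrast, loosen the wall of cells that still grow.

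The read depth behind the FPKM values is unknown. Steps in the low values placed WT control replicate 2 at 1.13 times the depth of the median library and all libraries between 0.896 and 1.44 times, with only 18 to 58 values in support per library. Only ratios between 0.7 and 1.5 to WT control replicate 1 were searched, so a larger difference in depth could not have been found. In WT control replicate 2, 20379 genes reached 1 FPKM, against 20880 and 20790 in replicates 1 and 3. On the log2(FPKM + 1) scale its correlation across genes was 0.92 with replicate 1 and 0.92 with replicate 3, while replicates 1 and 3 correlated at 0.98. Without the 169 members the first pair stood at 0.93 and the second at 0.94.

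The members' median was 2.02 on the log2(FPKM + 1) scale in WT control replicate 2, against 5.50 in replicate 1 and 5.74 in replicate 3. Their FPKM summed to 0.212% of the library in replicate 2, against 2.44% and 2.89% in replicates 1 and 3. In replicate 2, 41 members were under 1 FPKM. These values chose the members and carry no test. The same rule, turned on each of the other 17 libraries against its own replicates, found 1 to 10 genes per library, and the reverse rule found 3 genes high in WT control replicate 2, namely Os03g0843800, Os09g0541050 and Os01g0922700. No numbered new gene in the table met the rule. Just inside the limit stood Os03g0412300 (6.06 times), Os08g0531100 (6.09 times) and Os12g0454600 (6.15 times), and just outside it Os03g0832800, Os06g0126500 and Os11g0591200 (5.98 to 5.999 times).

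**Figure D1:**
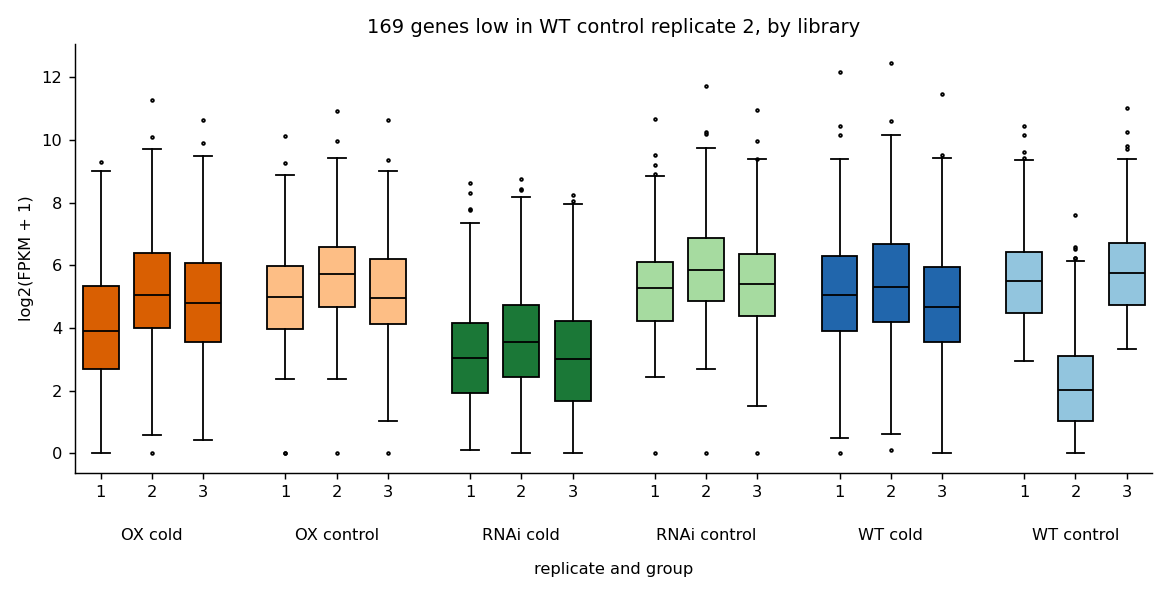
Level of the 169 members in each of the 18 libraries, as log2(FPKM + 1). Boxes span the quartiles with the median as a line, whiskers reach 1.5 box lengths and points lie beyond. The median is 2.02 in WT control replicate 2 and 3.01 to 3.55 in the RNAi cold libraries, and 3.90 to 5.86 in the other libraries.

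The table pairs locus IDs with no gene names, so most members can be given by ID only. For 12 members a name was checked against the reference gene table. By role they are the phenylpropanoid genes PAL, 4CL3 and CAD2, the methylation genes ROMT-15 and SAM2, the laccase gene LAC4, the cellulose synthase genes CESA3 and CESA8, the xylan-related genes GT43A and UGD3, the tubulin gene TUBB4 and the homeobox gene HOS66. The names tried came mostly from lists of wall, cell type and leaf genes. Those of ROMT-15, SAM2, LAC4, GT43A, UGD3 and TUBB4 are in no such list, and each belongs to a member. The share of wall genes among the named members therefore says nothing of that share among the other 157 members.

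PAL (Os02g0626100) encodes phenylalanine ammonia-lyase, the entry enzyme of the phenylpropanoid pathway. It had 43.8 FPKM in WT control replicate 2, against 683 FPKM in replicate 1 and 575 FPKM in replicate 3. Elsewhere it had 212, 447 and 285 FPKM in OX cold, 126, 262 and 216 FPKM in OX control, 162, 290 and 85.8 FPKM in RNAi cold, 338, 386 and 324 FPKM in RNAi control, and 308, 362 and 248 FPKM in WT cold. Every one of those 15 values lies above that of WT control replicate 2 and below those of replicates 1 and 3. A second member, Os02g0626400, has a locus number close to that of PAL, and reads of near-identical copies could have been split between such neighbours, so both are uncertain in level.

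4CL3 (Os02g0177600), a 4-coumarate:CoA ligase that activates the acids of the pathway, had 51.9, 72.5 and 49.4 FPKM in RNAi cold, against 197, 243 and 229 FPKM in RNAi control. In the OX line it had 77.8, 146 and 138 FPKM in the cold and 123, 186 and 204 FPKM in control. WT cold had 132, 187 and 143 FPKM, and WT control 324, 27.2 and 281 FPKM. The RNAi groups were far apart, the OX groups overlapped, and WT control replicate 2 was the lowest of the 18 libraries.

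CAD2 (Os02g0187800), a cinnamyl alcohol dehydrogenase that makes the monolignols, had 13.3, 20.04 and 17.7 FPKM in RNAi cold, against 114, 147 and 117 FPKM in RNAi control. It had 28.2, 68.2 and 51.8 FPKM in OX cold, against 92.2, 119 and 111 FPKM in OX control, and neither pair of groups overlapped. WT cold had 70.9, 84.4 and 76.9 FPKM, and WT control 138, 11.2 and 133 FPKM.

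ROMT-15 (Os08g0498100), an O-methyltransferase of the caffeoyl-CoA type in lignin synthesis, was among the 10 members with the highest level. It had 103, 153 and 128 FPKM in RNAi cold, against 394, 477 and 474 FPKM in RNAi control. In the OX line it had 178, 353 and 333 FPKM in the cold and 285, 480 and 511 FPKM in control, with overlap. WT cold had 285, 442 and 346 FPKM, and WT control 561, 60.2 and 551 FPKM. SAM2 (Os01g0323600), an S-adenosylmethionine synthetase that makes the methyl donor for such enzymes, had 73.5 FPKM in WT control replicate 2, against 654 and 636 FPKM in replicates 1 and 3.

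LAC4 (Os01g0842400) belongs to the laccases, the oxidases that couple monolignols. It had 10.9, 13.2 and 8.92 FPKM in RNAi cold, against 37.6, 69.9 and 71.8 FPKM in RNAi control. It had 12.9, 23.9 and 30.3 FPKM in OX cold, against 53.9, 53.4 and 47.7 FPKM in OX control. WT cold had 13.9, 21.2 and 21.6 FPKM, and WT control 54.3, 6.76 and 67.9 FPKM. All 9 cold libraries were below the 8 control libraries other than WT control replicate 2.

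GT43A (Os05g0123100), of the glycosyltransferase family that extends the xylan backbone, averaged 8.16 ± 1.93 FPKM in RNAi cold and 46.6 ± 8.38 FPKM in RNAi control (SD, n = 3 each). It averaged 17.04 ± 6.34 FPKM in OX cold and 41.0 ± 11.5 FPKM in OX control. UGD3 (Os03g0757900), a UDP-glucose dehydrogenase that supplies the sugar precursors of xylan, had 18.6 FPKM in WT control replicate 2, against 196 and 368 FPKM in replicates 1 and 3. It averaged 89.6 ± 10.8 FPKM in RNAi cold, 270 ± 134 FPKM in RNAi control and 364 ± 121 FPKM in WT cold.

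CESA3 (Os07g0424400) and CESA8 (Os07g0208500) are counted among the cellulose synthases of the primary wall, so the members are not secondary wall genes alone. CESA3 had 115, 183 and 105 FPKM in RNAi cold, against 234, 327 and 217 FPKM in RNAi control, and 46.7 FPKM in WT control replicate 2, against 330 and 346 FPKM in replicates 1 and 3. CESA8 had 30.6, 42.1 and 29.6 FPKM in RNAi cold, against 41.7, 65.8 and 38.8 FPKM in RNAi control, and these groups overlapped.

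TUBB4 (Os01g0805900) encodes a beta-tubulin of the microtubules. It averaged 9.05 ± 1.55 FPKM in RNAi cold and 50.3 ± 11.4 FPKM in RNAi control (SD, n = 3 each). HOS66 (Os03g0123500), a homeobox gene of the KNOX class, had 0.265 FPKM in WT control replicate 2, against 10.8 and 17.8 FPKM in replicates 1 and 3. It had 46.0, 37.2 and 24.2 FPKM in WT cold, so that its WT cold libraries were above all 3 WT control libraries.

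**Figure D2:**
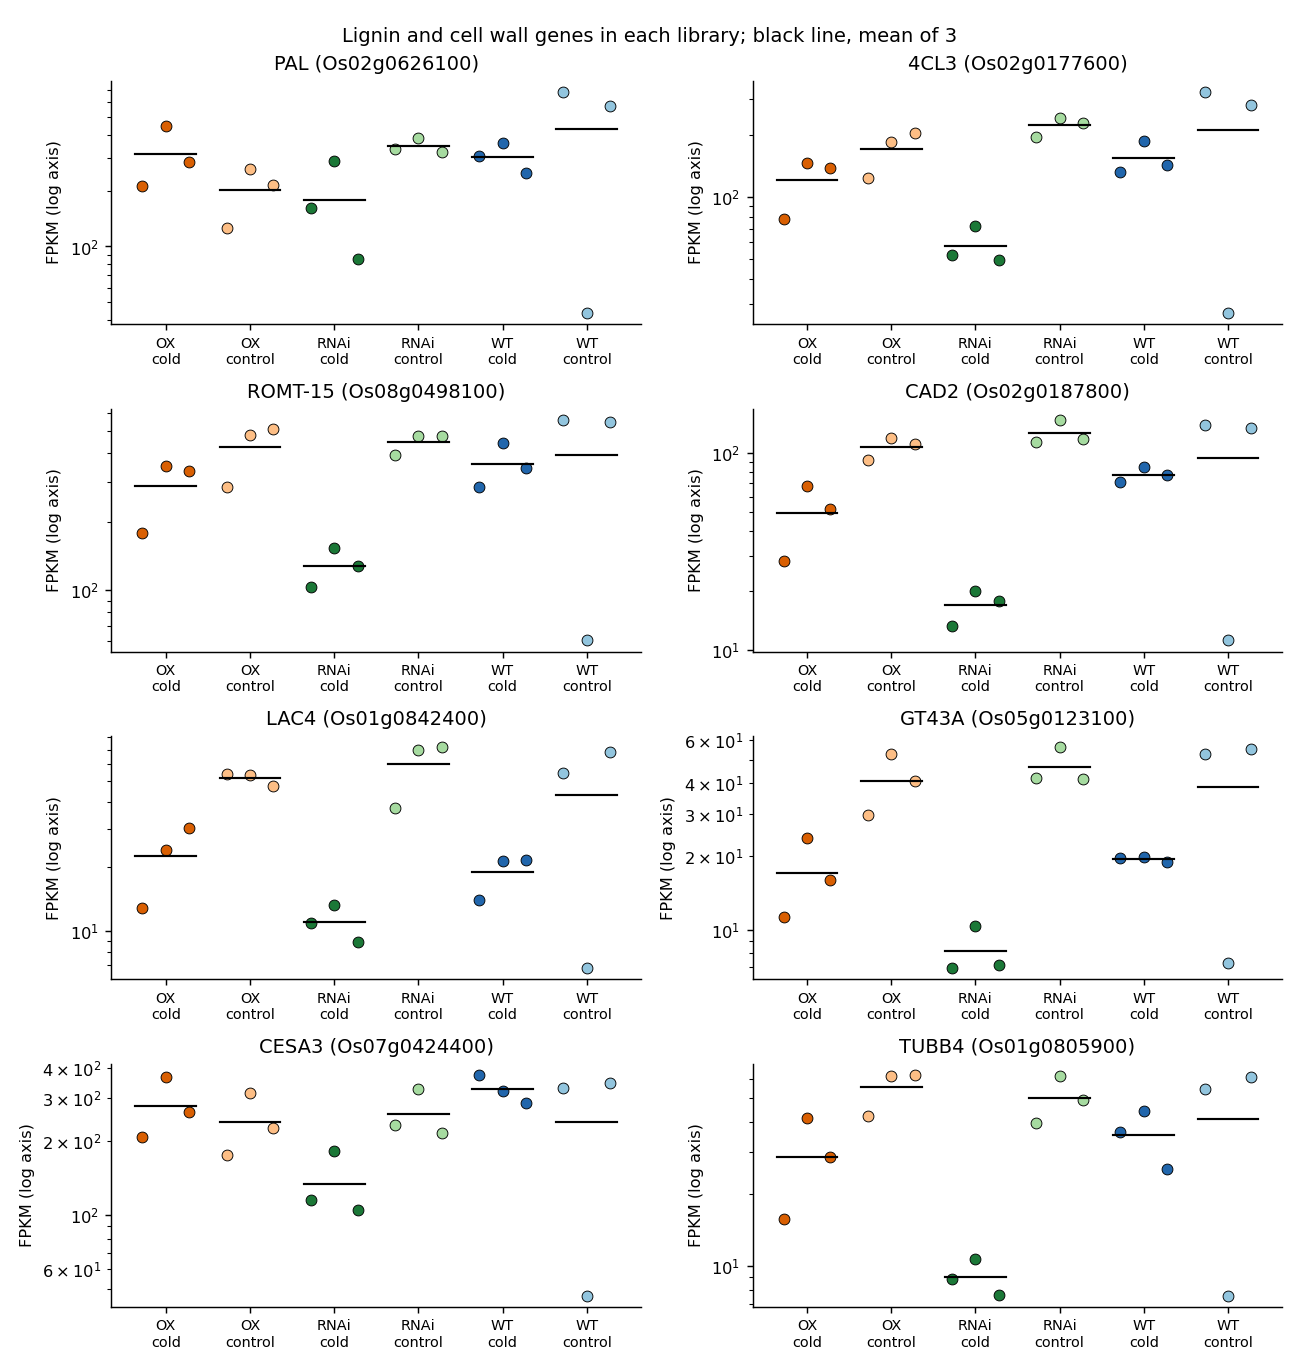
FPKM of 8 named members in each of the 18 libraries, on a log axis that differs between panels. Points are libraries and black lines are means of 3. WT control replicate 2 is the lowest point in 7 of 8 panels, at 43.8 FPKM for PAL and 60.2 FPKM for ROMT-15, and for GT43A it has 7.29 FPKM beside RNAi cold libraries at 6.94 and 7.15 FPKM.

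Among members without a name, Os12g0115000 was the highest, with 267 to 398 FPKM in RNAi cold, 2836 to 5585 FPKM in WT cold, and 1410, 193 and 2095 FPKM in WT control. The deepest gap in WT control replicate 2 belonged to Os09g0307300, which had 0.523 FPKM there, against 124 and 183 FPKM in replicates 1 and 3, a factor of 82.2. The 10 deepest gaps reached down to a factor of 30.1, and Os05g0190500, Os02g0308800 and Os01g0645000 were among them, with 0.172 to 0.318 FPKM in replicate 2. Os05g0190300, among the 10 deepest and the 10 highest, had 5.44 FPKM in replicate 2, against 237 and 514 FPKM in replicates 1 and 3. Os01g0878900, Os11g0115350 and Os12g0623900, also among the 10 highest, had 69.5 to 94.2 FPKM in replicate 2 and 496 to 893 FPKM in replicates 1 and 3. Os10g0461400 stood among the 10 deepest too, but it is listed at 0 in 8 of the 18 libraries and at 29.9 FPKM or more in the rest. Os12g0559934 is listed at 0 in 6 libraries. Of the 169 members, 28 have another member within 1000 steps of locus number, in 12 runs of 2 or 3 genes. The members come from all 12 chromosomes, at 1.13% to 2.15% of the genes per chromosome that met the minimum mean.

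Some wall genes that are no members were also low in WT control replicate 2. The list counts and medians given here include the members, whose factor was at least 6 by choice. CESA4, CESA7 and CESA9, the cellulose synthases of the secondary wall, and BC1, a COBRA-like gene of the same wall, were 8.85 to 14.4 times below the lower of replicates 1 and 3. They met the rule and were left out of the group by name. CESA4 had 3.73 FPKM, against 65.9 and 73.2 FPKM in replicates 1 and 3. Of the lignin list, 8 of 8 genes that reached 1 FPKM in any library were below both replicates, with a median factor of 7.98, and 4 of them are members. Of the primary wall cellulose list, 6 of 6 were below both, with a median factor of 3.77, and 2 are members. Of the other secondary wall genes, 7 of 8 were below both (median 5.19, 2 members), and of the epidermis and cuticle genes 4 of 4 (median 1.95). The 1 member among the last, Os03g0181500, had 17.1 FPKM, against 134 and 249 FPKM. Over the 23175 genes with 1 FPKM in at least 3 of the 18 libraries, replicate 2 was the lowest of the WT control libraries for 45.1%. These lists were chosen with earlier results of these data known.

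Lists for growing, green and other cells did not share this. Of 10 expansin genes, 7 were above both replicates and 2 below both. EXPA4 had 58.6 FPKM in replicate 2, against 27.0 and 40.8 FPKM in replicates 1 and 3. Of 8 photosynthetic mesophyll genes 4 were above both and 3 below both, and the chlorophyll-binding protein gene CAB2R had 15724 FPKM, against 4291 and 6424 FPKM. The mesophyll list averaged 11.97 on the log2(FPKM + 1) scale, against 11.42 and 11.62. Of 7 dividing-cell genes 4 were above both and 3 below both. No meristem gene of 3 reached 1 FPKM in any library, and of 6 root genes only 2 did, of which 1 was above both and 1 below both. LSI1, a silicon transporter best known from roots, had 14.6 FPKM in replicate 2, against 1.40 and 5.33 FPKM, and ranged from 0.575 to 13.7 FPKM in the other libraries. IRT1, an iron transporter, had 0.565 FPKM in replicate 2, against 1.12 and 0.756 FPKM. Of 2 phloem genes, the sucrose transporter gene SUT1 was above both and the sucrose synthase gene SUS1 below both, and of 5 chlorophyll synthesis genes 2 were above both and 2 below both. The part of these markers in the members' low level was not tested.

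**Figure D3:**
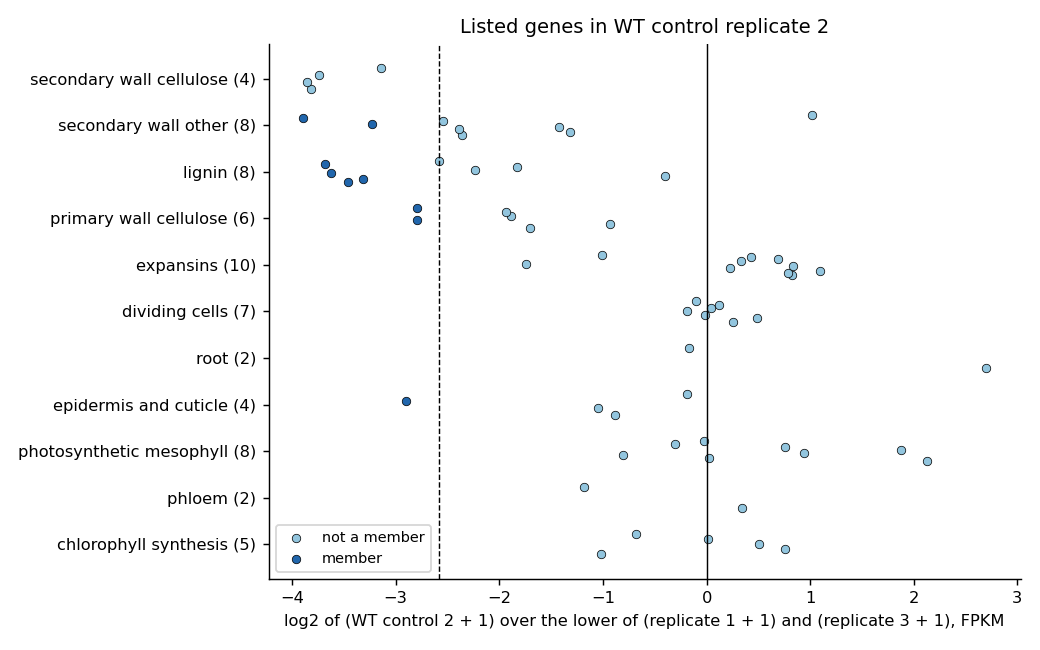
Each point is a listed gene that reached 1 FPKM in any library, with the number per list in brackets. The x axis gives log2 of its (FPKM + 1) in WT control replicate 2 over the lower of replicates 1 and 3, the solid line marks no difference and the dashed line the factor of 6. Lignin and cellulose genes all lie left of 0. Of 10 expansin genes, 2 lie left of it and 7 were above both replicates.

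Because WT control chose the members, the comparisons tested used the other 15 libraries alone. They were fitted with limma on log2(FPKM + 1) over 22726 genes, and calls needed an adjusted p (Benjamini-Hochberg, over all of these genes) under 0.05. Of the 169 members, 169 passed the filter on low values, which asked for 1 FPKM in 3 of the 15 libraries. The members' minimum level in WT control favours genes with high levels in unstressed leaves, so the share of genes called is given also among the 9925 genes tested that met the same minimum mean.

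The members were much lower in the cold leaves of the RNAi line. In RNAi cold against RNAi control, 155 of 169 members fell, 1 rose and 13 were not called. Over all genes tested, 30.2% were called lower and 17.8% higher, and among genes at the minimum mean 38.5% and 13.0%. The members' median log2 fold change was -2.22, against -0.16 for all genes tested, and 148 members fell by more than 1. In 155 members the 3 RNAi cold libraries were all below the 3 RNAi control libraries, which held for 37.7% of all genes tested and 46.3% of those at the minimum mean.

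The largest falls were those of Os11g0645400 (-5.42 ± 0.51, SE, adjusted p = 1.378e-06), Os03g0113000 (-5.36 ± 0.41, adjusted p = 1.497e-07) and Os06g0218600 (-5.34 ± 0.44, adjusted p = 3.069e-07). Os06g0218600 had 10.4, 14.5 and 4.52 FPKM in RNAi cold, against 334, 531 and 366 FPKM in RNAi control. Os03g0234900 and Os06g0317600 completed the 5 largest. Of the 12 named members 11 fell, from -2.82 ± 0.25 for CAD2 (adjusted p = 6.49e-07) and -2.38 ± 0.25 for GT43A to -0.98 ± 0.20 for SAM2 and -0.97 ± 0.27 for CESA3. CESA8 changed by -0.48 ± 0.33 and was not called (adjusted p = 0.252). The member that rose was Os04g0541100 (0.78 ± 0.25, adjusted p = 0.0194), with 21.5, 26.7 and 28.4 FPKM in RNAi cold and 17.2, 13.2 and 13.2 FPKM in RNAi control. It was not called without RNAi cold replicate 2 or 3, or without RNAi control replicate 2 or 3.

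Among wall genes outside the group the change depended on the list. All 4 of CESA4, CESA7, CESA9 and BC1 fell, by 1.32 to 2.24 on the log2 scale. Of 6 other secondary wall genes that are no members 5 fell and none rose. Of 4 lignin genes that are no members 2 fell, namely Os10g0512400 and Os05g0494000, and 1 rose. The gene that rose was ZB8, a phenylalanine ammonia-lyase gene (3.01 ± 0.24, adjusted p = 1.878e-07), which had 42.5, 54.1 and 42.0 FPKM in RNAi cold, against 6.23, 4.73 and 3.72 FPKM in RNAi control. Of 4 primary wall cellulose genes outside the group CESA1 fell (-0.64 ± 0.17) and CESA5 rose (1.92 ± 0.20). Of the mesophyll genes 6 of 8 fell, and of the chlorophyll synthesis genes 4 of 5, with none higher. Of 10 expansin genes 2 rose and 1 fell. The part of the mesophyll and chlorophyll genes in the members' fall was not tested. In bulk leaf RNA, fewer cells of a type and less RNA per cell cannot be told apart.

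In the OX line 32.0% of members were called lower in the cold, near the share among genes at the minimum mean. In OX cold against OX control 54 members fell, 5 rose and 110 were not called, while 24.4% of all genes tested were called lower and 14.3% higher, and 29.3% and 10.2% of genes at the minimum mean. The median change was -0.52, against -0.17 for all genes. Without OX cold replicate 1 it was -0.17, against -0.15 for all genes, and it was -0.80 without OX cold replicate 2 and -0.32 without OX control replicate 2. The 54 that fell all fell in the RNAi line too, where 91.7% of all members fell. Without OX cold replicate 2 or without OX control replicate 3 the number that rose was 3, and without OX control replicate 2 it was 9. FPKM scaled by median ratios moved the median of all genes to -0.0135 in this comparison and to -0.0023 in the RNAi line, and the members' medians to -0.34 and -2.05. Over all called genes, the share that was higher was then 54.2% in the OX line and 51.5% in the RNAi line, against 36.9% and 37.1% as deposited.

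The largest falls in OX cold were Os11g0242600 (-3.25 ± 0.21, adjusted p = 3.751e-08), Os05g0550300, Os06g0209100, Os12g0174700 and Os03g0852400, all between -2.98 and -3.25. Os11g0242600 had 0.506, 1.63 and 1.11 FPKM in OX cold, against 14.7, 21.0 and 19.99 FPKM in OX control. Of the named members LAC4 (-1.25 ± 0.29, adjusted p = 0.00383), GT43A (-1.24 ± 0.25), CAD2 (-1.19 ± 0.25) and TUBB4 (-1.01 ± 0.30) fell, and the other 8 were not called. Os04g0541100 (1.92 ± 0.25), Os06g0131700 (1.69 ± 0.25) and Os02g0626400 (1.28 ± 0.22) rose, with groups that did not overlap. Os06g0131700 had 68.1, 89.5 and 106 FPKM in OX cold, against 21.9, 35.3 and 23.1 FPKM in OX control. Of the 4 secondary wall cellulose genes only BC1 was called, at -0.83 ± 0.30 (adjusted p = 0.0438). Of the mesophyll genes 5 of 8 were called lower, and of the chlorophyll synthesis genes 4 of 5, with none of either list higher. Their part in the members' change was not tested.

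**Figure D4:**
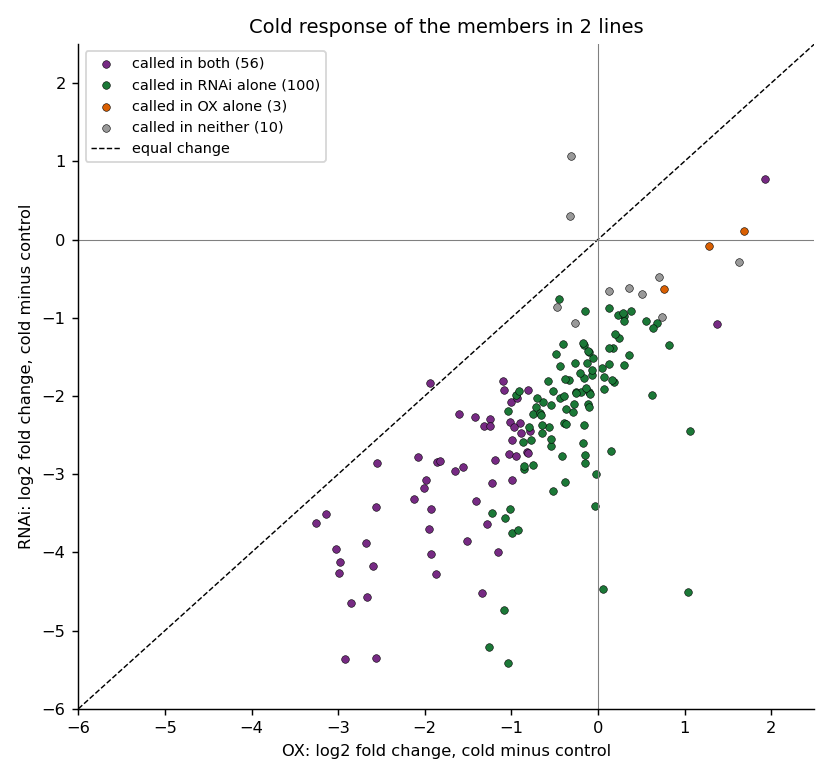
Log2 fold change of the 169 members between cold and control leaves, in the OX line on the x axis and the RNAi line on the y axis. Colours give the line in which a gene was called and the dashed line marks equal change. Of the points, 166 lie below the dashed line, 56 were called in both lines and 100 in RNAi leaves alone. Of the 56, 54 were lower in both lines, and 1 was lower in the RNAi line and higher in the OX line.

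The change in the cold was lower in RNAi than in OX for 166 of 169 members. The same held for 48.0% of all genes tested and 52.8% of genes at the minimum mean. The difference of the responses, OX minus RNAi, had a median of 1.59 on the log2 scale, against -0.02 for all genes tested, and 143 members had an unadjusted p under 0.05 with OX higher, 84.6% of members against 7.39% of all genes tested and 10.2% of genes at the minimum mean. After adjustment over all genes 1 member was called higher and none lower, with no member under an unadjusted p of 0.05 in that direction, while 0.044% of all genes were called higher and 0.0264% lower, and 0.0302% and 0.0101% of genes at the minimum mean. That member was Os11g0645400 (4.38 ± 0.73, adjusted p = 0.0445). Without OX cold replicate 1 the count was 97 members, CAD2 (1.99 ± 0.25, adjusted p = 0.0108), 4CL3 (1.71 ± 0.30, adjusted p = 0.0223) and HOS66 (2.53 ± 0.41) among them. It was 6 without RNAi cold replicate 2, 4 without OX control replicate 2 and 1 without RNAi control replicate 1, and without any other of the 15 libraries it was 0.

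OX cold replicate 1 was itself low for these genes. It was the lowest of the 3 OX cold libraries in 168 of 169 members. The same held for 43.9% of the 23175 genes with 1 FPKM in at least 3 of the 18 libraries. The members' median in that library was 3.90 on the log2(FPKM + 1) scale, against 5.07 and 4.80 in replicates 2 and 3. ROMT-15 had 178 FPKM in it and 353 and 333 FPKM in the other two. Some unevenness of the same kind was present in other groups. RNAi control replicate 1 was lowest in 121 members (25.5% of all genes), WT cold replicate 3 in 122 (31.3%) and OX control replicate 1 in 104 (38.1%). Outside WT control, replicate 2 was lowest of its group in 1 to 8 members, against 21.1% to 43.3% of all genes. The members' median spread from 3.01 to 3.55 within RNAi cold, from 5.27 to 5.86 within RNAi control and from 4.66 to 5.31 within WT cold. Every RNAi cold library was below every library of the other groups in that median, WT control replicate 2 excepted.

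**Figure D5:**
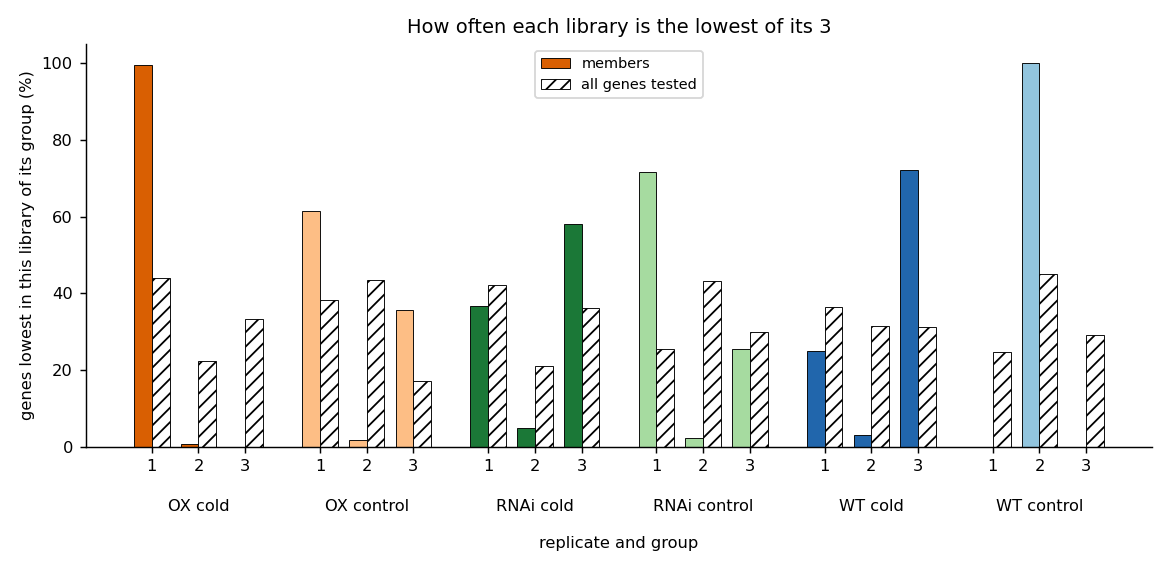
Percent of the 169 members (filled bars) and of all genes tested (hatched bars) for which a library is the lowest of the 3 of its group. All genes tested are here the 23175 genes with 1 FPKM in at least 3 of the 18 libraries. The members reach 100% in WT control replicate 2 by their choice and 99.4% in OX cold replicate 1, where 43.9% of all genes are lowest.

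After cold, the RNAi leaves were also below WT leaves. In RNAi cold against WT cold 131 members fell and none rose, with 38 not called and no member higher at an unadjusted p under 0.05. Without RNAi cold replicate 1, 1 member was called higher. Over all genes 14.5% were called lower and 16.9% higher, and at the minimum mean 20.8% were called lower, and 1484 of the 9925 higher. The median was -1.73, against 0.02 for all genes. Of the members, 127 fell in this comparison and in RNAi cold against RNAi control, which share the RNAi cold libraries. Os03g0658800 fell furthest (-6.09 ± 0.67, adjusted p = 5e-05), with 0.963, 5.45 and 0.391 FPKM in RNAi cold and 271, 151 and 132 FPKM in WT cold. Os04g0354600, Os06g0317600, Os11g0645400 and Os03g0234900 followed, between -4.74 and -5.58. CAD2 (-2.14 ± 0.25), 4CL3 (-1.40 ± 0.25), HOS66 (-2.34 ± 0.33) and UGD3 (-1.96 ± 0.47) fell, while PAL, LAC4, SAM2 and CESA8 were not called. The expansins, outside the group, went the other way, with 5 of 10 higher and none lower in RNAi cold, EXPA4 by 3.40 ± 0.81. Of the chlorophyll synthesis genes 4 of 5 were lower (list median -0.70), and of the mesophyll genes 1 of 8. The part of these genes in the members' level was not tested.

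OX cold against WT cold gave fewer calls. Of the members 12 fell, 3 rose and 154 were not called, against 4.51% lower and 10.9% higher among all genes tested and 5.49% and 9.4% of genes at the minimum mean. The median was -0.36. Below 0 were 131 members, 77.5%, against 40.8% of all genes tested and 46.2% of genes at the minimum mean. Without OX cold replicate 1 the median was -0.0149, with 88 members below 0. It was -0.23 without WT cold replicate 2 and -0.57 without OX cold replicate 2. Os01g0323775 had the largest fall (-2.57 ± 0.33, adjusted p = 0.000212), with 51.6, 60.5 and 64.2 FPKM in OX cold, against 337, 357 and 366 FPKM in WT cold. It had 19.7 to 81.3 FPKM in the other OX and RNAi groups together and 17.1, 1.09 and 33.0 FPKM in WT control, so the WT cold libraries stand alone. Os12g0115000, Os05g0521900, Os03g0113000 and Os05g0456300 fell by 1.33 to 1.62, and Os08g0489300, Os03g0637600 and Os02g0590400 rose by 0.92 to 1.07. No named member was called. Single libraries decide these counts. Without WT cold replicate 1 or OX cold replicate 1 there was 1 member lower, without WT cold replicate 2 there were 2, without OX cold replicate 3 there were 5, without OX control replicate 2 there were 19 and without OX cold replicate 2 there were 23. The number higher was 8 without OX cold replicate 1, 0 without OX cold replicate 2 or 3 and 1 without WT cold replicate 1.

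Before cold, the OX and RNAi lines differed in 1 member, against 1.02% higher and 0.924% lower among all genes tested, and 0.554% and 0.655% of genes at the minimum mean. Os01g0159200 was higher in OX control (1.54 ± 0.27, adjusted p = 0.00539), with 58.5, 42.0 and 80.0 FPKM, against 16.7, 27.9 and 15.5 FPKM in RNAi control. No member was called lower. At an unadjusted p under 0.05 in limma, 10 were lower, 5.92% of members, against 6.19% of all genes tested and 7.13% of genes at the minimum mean. Without OX control replicate 2, 6 were called lower, and without RNAi control replicate 3, 1. The median difference was -0.29, against 0.07 for all genes. A negative value was found in 137 of 169 members, 81.1%, against 39.3% of all genes tested and 40.8% of genes at the minimum mean. The median was -0.12 without RNAi control replicate 2 (107 negative) and -0.16 without OX control replicate 1 (116 negative). It was -0.45 without RNAi control replicate 1 and -0.50 without OX control replicate 2.

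Comparisons with WT control are described without a test. On the log2(FPKM + 1) scale, the median difference of the members between WT cold and WT control was 0.51 with all 3 WT control libraries and -0.65 with replicates 1 and 3 alone. The number of members with a higher mean in WT cold was 117 with the 3 libraries and 51 with replicates 1 and 3. For all genes the medians were -0.22 and -0.24. Between OX control and WT control the members' median was 0.76 with the 3 libraries and -0.35 with replicates 1 and 3, and between RNAi control and WT control 1.01 and -0.10. The sign of the members' median thus turned with replicate 2 in all 3 comparisons. The rule placed replicate 2 at least 6 times below both others, so including it lowers the WT control mean of every member. That turn follows from the choice of members and carries no test. With replicates 1 and 3, 91 of 169 members had all 3 WT cold libraries below both WT control libraries, and 27 had all above both. The same held for 47.4% and 20.4% of all genes, here the 23175 with 1 FPKM in at least 3 of the 18 libraries. Of the 9923 genes that met the minimum mean, the left-out genes not counted, it held for 4893 and 2047. Replicates 1 and 3 took part in choosing the members, so these shares carry no test.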

How the data were processed

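The authors deposited 1 table of FPKM values for 38610 genes in 18 leaf libraries. Trizol extraction and an Illumina TruSeq RNA kit were used, per the labels' protocols. The submitters' processing notes name Bowtie 0.12.2, with its role, the build, the annotation and the counter not given in the sources used here. FPKM values hold no read totals, so no counting intervals are given.

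Members were found by the rule in the report. The members, the gene lists, the tests and the alternatives were chosen with earlier results of these data known. WT control chose the members, so 5 group means were fitted to the 15 other libraries with limma (version 3.58.1, under R 4.3.3; eBayes with trend) on log2(FPKM + 1) with a pseudocount of 1 and no further normalization. Genes needed 1 FPKM in 3 of those 15 libraries. Calls used a Benjamini-Hochberg adjusted p under 0.05 over all genes tested. The fit was tested on simulated data. Fold changes of low genes are understated by the pseudocount.

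Of 83 gene names written for locus IDs from general knowledge, 63 matched a single reference gene (assembly ASM3414082v1) on the same chromosome. Named genes were the 10 members deepest in WT control replicate 2, the 10 with the highest level, those next to the limit, the listed members, the members with a checked name, and per comparison up to 5 called members per direction with the largest change and no overlap. Other genes named were listed markers, and members with values at 0. Results for 1 further member are not reported here by name.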

Additional observations from a re-analysis of the deposited data

Results flagged for a closer look

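Os11g0645400 differed between the OX and RNAi lines in its response to cold, by a test of the difference itself in limma. The difference, OX minus RNAi, was 4.38 on the log2 scale (SE 0.73, adjusted p = 0.0445). It had 47.0, 182 and 81.7 FPKM in OX cold and 177, 240 and 145 FPKM in OX control, and 4.43, 17.3 and 4.03 FPKM in RNAi cold and 243, 593 and 269 FPKM in RNAi control. It was called in 9 of 23 settings, the reported one included, with a difference of 3.87 to 4.99 and an adjusted p of 0.00299 to 0.529.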

How the results depend on the processing

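Members called higher and lower are given by setting. With all 18 libraries in the fit, 1 member rose and 21 fell in OX cold against OX control, 0 rose in RNAi cold against RNAi control, 0 rose and 1 fell in OX cold against WT cold, 64 fell in RNAi cold against WT cold, 0 rose in OX control against RNAi control, and the difference of responses was called in 0. That fit includes WT control replicate 2. With the replicate block (the replicate number as a covariate), 8 rose in OX cold against OX control, 9 rose and 36 fell in OX cold against WT cold, 1 fell in OX control against RNAi control, and the difference of responses was called in 95. Over all genes tested, same-numbered libraries correlated between -0.23 and 0.41 in their deviations from the group means, and not every pair was above 0.1. The members' median on the log2(FPKM + 1) scale was highest in replicate 2 in every group fitted. It was 5.07 in OX cold, 5.72 in OX control, 3.55 in RNAi cold, 5.86 in RNAi control and 5.31 in WT cold. Whether same-numbered libraries share more than a number is unknown and was not tested. With no filter, 4 fell in OX cold against WT cold, and the difference of responses was called in 0, as with a pseudocount of 0.1. It was called in 3 members under quantile normalization and in 3 under median-ratio scaling. The cause of these shifts was not tested.

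Leaving out each of the 15 libraries gave 3 to 9 higher and 37 to 64 lower in OX cold against OX control, 0 to 1 and 145 to 157 in RNAi cold against RNAi control, 0 to 8 and 1 to 23 in OX cold against WT cold, 0 to 1 and 110 to 136 in RNAi cold against WT cold, 1 to 1 and 0 to 6 in OX control against RNAi control, and 0 to 97 and 0 to 0 for the difference of responses. A fit of 17 libraries without WT control replicate 2 called the difference of responses in 5 members. Without that library, an alternative chosen after seeing the data, the members' median differences from WT control were -0.65 for WT cold, -0.35 for OX control and -0.10 for RNAi control.

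The rule gave 323 members at a factor of 4 and 61 at a factor of 10. Of 53 results for single genes, 21 lost their call in at least 1 alternative and none changed sign with a call. The depth is unknown, so the precision of values near 0 FPKM is unknown too.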
